A study of Homo sapiens with 9 samples.

Results

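Reticulocyte maturation was followed through 10 named genes in 9 mRNA libraries. The genes were AHSP, CA1, CA2, BNIP3L, TRIM58, UBE2O, UBE2H, SELENBP1, BLVRB and FBXO7. They are 10 of the 57338 genes in the deposited table, and all 10 symbols matched an Ensembl gene in it. They were selected on measured values, being listed with the haemoglobin levels of the libraries labelled hPRM1 known, so the difference of those libraries from the empty vector is given for them as a description and without a p-value. HEK293T, an established human embryonic kidney cell line, was, by the labels and the study's methods, transfected with an empty EGFP vector or with a plasmid for human protamine 1 (hPRM1) or human protamine 2 (hPRM2) fused to EGFP. Live cells with high EGFP were sorted 3 days later, and their RNA was sequenced from the 3′ end with the QuantSeq kit. Each group had 3 libraries, and by their labels all of them carried an EGFP plasmid and passed the same sort, which the values of the libraries labelled hPRM1 go against. The sources used here do not say whether the 3 libraries of a group came from separate cultures, so the p-values measure only the spread between these libraries.

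Values are in RPKM, read numbers scaled to gene length and to the depth of the library, by the study. The reads came from the 3′ end, where their number need not grow with the length of the transcript, so a comparison of RPKM between genes depends on the division by length. The depth estimated from genes with a single transcript was 7930000 to 10790000 reads on genes in the empty vector libraries, 4210000 to 5860000 in the libraries labelled hPRM1 and 1270000 to 2650000 in the hPRM2 libraries. PRM2 was listed at 36130 to 71224 RPKM in the hPRM2 libraries and at 0 in the other 6, whereas PRM1 was listed at 0 in all 9, including those labelled hPRM1. The libraries labelled hPRM1 stood apart from the other 6 in their cell type markers. Of 8 markers of HEK293T, 6 were listed at 0 in all 3 of them (among them LIN28B, IGF2BP1, NEFL and NEFM), and the summed level of the 8 was 7.31 to 8.49 RPKM against 167 to 267 RPKM with the empty vector. The summed level of 10 haemoglobin genes was 2061750 to 2267020 RPKM in them and 15.5 to 29.5 RPKM with the empty vector. All 10 neutrophil and monocyte markers, all 11 lymphocyte markers and 5 of 7 platelet markers were also above every empty vector library. The labels give these 3 libraries names from another number series than the other 6, so that the series of library names and the plasmid cannot be told apart. They are called the libraries labelled hPRM1 throughout.

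A reticulocyte is a red cell that has just lost its nucleus. As it matures it clears its mitochondria by autophagy, degrades its ribosomes and most proteins that are not haemoglobin through the ubiquitin system, and reshapes its skeleton and membrane. AHSP and the carbonic anhydrases CA1 and CA2 belong to the contents of the finished cell, BNIP3L marks mitochondria for removal, and TRIM58, UBE2O, UBE2H and FBXO7 work in ubiquitin transfer. SELENBP1 and BLVRB are enzymes of sulphur and of flavin and bilin metabolism that are abundant in red cells. Several of the 10 are also used outside the red lineage, so a level above 0 in a library does not by itself mark a red cell.

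RefSeq promoter windows on GRCh38.p14 were found for 4 of the 10 genes, and the bases before the first annotated transcript are shown for TRIM58, a gene with a higher level in the libraries labelled hPRM1 than with the empty vector, for UBE2O, one with a lower level, and for BLVRB and FBXO7, which were called in neither direction. The windows were searched on both strands for AGATAA and TGATAA, forms of the GATA motif, for CCACCC, the core of the motif of erythroid Krüppel-like factors, and for TGACTCA, which NFE2 and AP-1 share. Capitals mark CCACCC, the single match in the stretches printed. All 4 are on the strand of the gene, 5′ to 3′, and end at the base before the first annotated transcript, which for TRIM58 is the RefSeq start.
TRIM58, chr1:247856937-247857186, plus strand: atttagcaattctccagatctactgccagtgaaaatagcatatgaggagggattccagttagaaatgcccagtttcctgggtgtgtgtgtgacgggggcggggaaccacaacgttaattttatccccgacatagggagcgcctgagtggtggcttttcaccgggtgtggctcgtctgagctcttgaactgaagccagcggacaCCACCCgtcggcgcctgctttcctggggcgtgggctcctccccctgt
UBE2O, chr17:76453207-76453402, minus strand: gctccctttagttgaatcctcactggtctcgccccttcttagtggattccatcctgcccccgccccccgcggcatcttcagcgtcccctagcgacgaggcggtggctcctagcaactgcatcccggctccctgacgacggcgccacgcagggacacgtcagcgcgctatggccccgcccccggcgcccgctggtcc
BLVRB, chr19:40465841-40465995, minus strand: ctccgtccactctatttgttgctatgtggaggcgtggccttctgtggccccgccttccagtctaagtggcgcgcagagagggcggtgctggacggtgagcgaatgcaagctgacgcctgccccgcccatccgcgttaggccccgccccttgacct
FBXO7, chr22:32474561-32474675, plus strand: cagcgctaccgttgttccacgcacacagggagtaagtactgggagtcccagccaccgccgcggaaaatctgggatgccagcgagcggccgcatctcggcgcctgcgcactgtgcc

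The CCACCC of TRIM58 began 47 bases before the RefSeq start, counted as position -47. A further window of FBXO7, for a later start, held the same letters at position -94. CCACCC was present in 31.3% of the 35116 promoter windows of the same 250 bases, AGATAA in 9.17%, TGATAA in 6.66% and TGACTCA in 4.2%, and the 5 windows of these 4 genes held none of the other 3 motifs. The G and C share of the TRIM58 window was 56%, near the median of 58% over all windows. The windows of BLVRB at 67.2%, UBE2O at 72% and FBXO7 at 70.8% and 74% lay above that median. The observed over expected frequency of CpG was 0.615 for TRIM58 and 1.1 for UBE2O against a median of 0.558, so these windows ranged from ordinary to CpG-rich.

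AHSP, the chaperone that binds free alpha-globin until it joins beta-globin, was listed at 208, 135 and 228 RPKM in the 3 libraries labelled hPRM1 and at 0 in the empty vector and hPRM2 libraries. The groups did not overlap, and in the libraries labelled hPRM1 the gene was at percentiles 97.2 to 98.5 of all genes above 0. At the longest annotated transcript of AHSP, the limit of 3 reads that a value of 0 allows was at most 1.38 RPKM in an empty vector library and at most 8.62 RPKM in an hPRM2 library. AHSP lies on chromosome 16 at 31527864 to 31528803, plus strand, in the GENCODE 29 annotation of GRCh38. In bulk libraries a smaller share of cells of a type cannot be told apart from less RNA per cell.

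**Figure D1:**
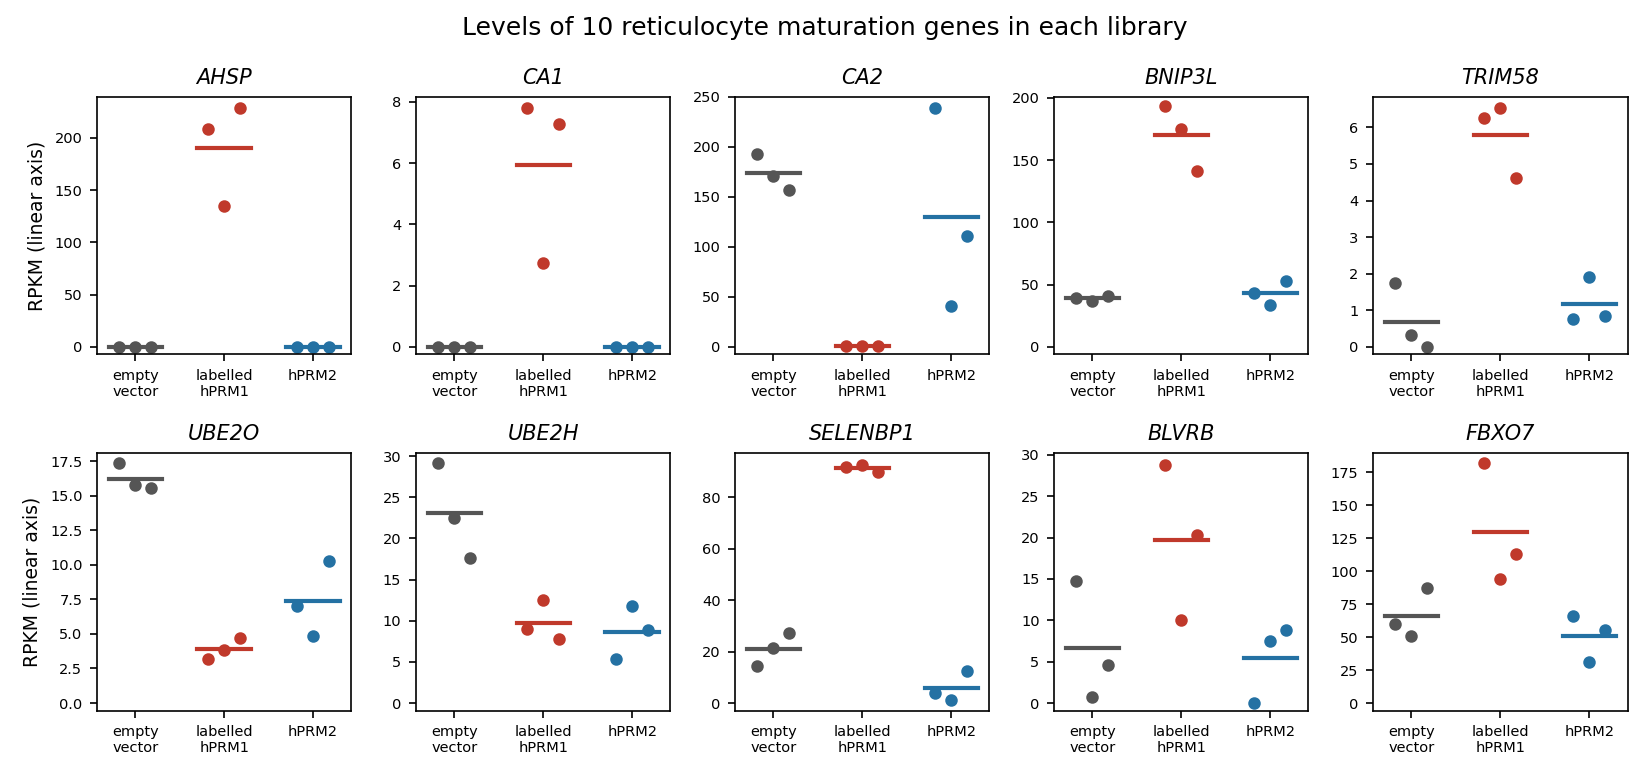
RPKM (linear axis, a separate scale for each gene) of the 10 reticulocyte maturation genes in each library, as points for replicates 1 to 3 from left to right, with a bar at the group mean. AHSP and CA1 are at 0 in all 6 libraries not labelled hPRM1, CA2 is near 0 in the libraries labelled hPRM1, and SELENBP1 in those 3 libraries lies between 90.1 and 92.8 RPKM.

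The red cell carbonic anhydrases, which interconvert carbon dioxide and bicarbonate, differed in direction. CA1 was listed at 7.79, 2.73 and 7.28 RPKM in the libraries labelled hPRM1 and at 0 in the other 6, where 3 reads would give at most 0.149 RPKM with the empty vector and 0.932 RPKM with hPRM2. CA2 was at 193, 171 and 157 RPKM with the empty vector, which places it at percentiles 92.8 to 94.4 of the genes above 0, and at 1.16, 1.13 and 0.522 RPKM in the libraries labelled hPRM1, percentiles 22.5 to 38.8. The mean of CA2 with the empty vector was 185 times that in the libraries labelled hPRM1. At its longest transcript the CA2 values stand for about 10, 7 and 4 reads in the libraries labelled hPRM1 against 2145 to 2488 reads with the empty vector. CA2, although an abundant enzyme of red cells, was thus highest in libraries with the HEK293T markers. With hPRM2 it was at 238, 41.2 and 111 RPKM, a range that holds all 3 empty vector values.

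BNIP3L, the outer membrane protein that links mitochondria to the autophagosome in maturing reticulocytes, was at 193, 175 and 141 RPKM in the libraries labelled hPRM1. With the empty vector it was at 39.3, 37.0 and 40.6 RPKM, the tightest of the 8 genes above 0 there, with a coefficient of variation of 4.69%. The 2 groups did not overlap, with means of 169.8 RPKM ± 26.3 (SD, n = 3) and 38.9 RPKM ± 1.82 (SD, n = 3), a ratio of 4.36. With hPRM2 it was at 43.5, 33.2 and 52.6 RPKM, on both sides of the empty vector values. Its close relative BNIP3, another mitochondrial receptor for autophagy that was chosen for this comparison after its values were seen, was at 40.5, 31.7 and 34.5 RPKM with the empty vector and at 1.11, 1.89 and 1.98 RPKM in the libraries labelled hPRM1. The ratio of BNIP3L to BNIP3 within a library, which does not depend on the scaling of the library, was 0.969 to 1.18 with the empty vector, 71.4 to 174 in the libraries labelled hPRM1 and 1.28 to 5.26 with hPRM2.

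Of the ubiquitin genes, TRIM58, a ubiquitin ligase of late erythroblasts that leads to the loss of the motor protein dynein, was at most at 6.52 RPKM in any library. It was at 6.25, 6.52 and 4.63 RPKM in the libraries labelled hPRM1, at 1.74, 0.314 and 0 RPKM with the empty vector and at 0.760, 1.91 and 0.843 RPKM with hPRM2. Among genes above 0 these were percentiles 63.9 to 70.6 in the libraries labelled hPRM1. The percentiles were 6.17 to 21.6 with the empty vector, where it was above 0, and 7.02 to 23.7 with hPRM2. TRIM58 has a single annotated transcript, and its values stand for 109, 81.7 and 72.0 reads in the libraries labelled hPRM1, 41.0, 8 and 0 with the empty vector and only 5.99, 7.23 and 4.04 with hPRM2. The libraries labelled hPRM1 lay above the other 6, and the values with hPRM2 rest on too few reads to be set apart from those with the empty vector.

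UBE2O, a large ubiquitin-conjugating enzyme that also acts as a ligase and removes ribosomal proteins in reticulocytes, went the other way. It was at 17.4, 15.7 and 15.5 RPKM with the empty vector, at 3.18, 3.85 and 4.72 RPKM in the libraries labelled hPRM1 and at 7.05, 4.87 and 10.3 RPKM with hPRM2. UBE2H, the conjugating enzyme that serves the CTLH ligase in erythroid cells, was at 29.2, 22.5 and 17.6 RPKM with the empty vector. It was at 8.98, 12.5 and 7.77 RPKM in the libraries labelled hPRM1 and at 5.31, 11.8 and 8.93 RPKM with hPRM2. For both genes the 3 libraries labelled hPRM1 lay below all 3 empty vector libraries, beside 66.4% of all tested genes. The 3 hPRM2 libraries also lay below them for both, beside 29.9% of the genes tested in that comparison. The means with the empty vector were 4.15 times (UBE2O) and 2.37 times (UBE2H) those in the libraries labelled hPRM1.

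FBXO7, the F-box subunit of an SCF ubiquitin ligase that binds the proteasome regulator PSMF1, was the highest of the 4 ubiquitin genes in every library, in RPKM and in estimated reads. It was at 182, 94.2 and 113 RPKM in the libraries labelled hPRM1, at 60.3, 50.8 and 87.5 RPKM with the empty vector and at 65.6, 31.0 and 55.3 RPKM with hPRM2. The lowest library labelled hPRM1 was just above the highest empty vector library, and the ratio of the means was 1.96.

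SELENBP1, a selenium-binding methanethiol oxidase, was at 91.8, 92.8 and 90.1 RPKM in the libraries labelled hPRM1, a coefficient of variation of 1.52% and the smallest of the 10 genes there. It was at 14.3, 21.3 and 27.3 RPKM with the empty vector, so the groups did not overlap and the ratio of the means was 4.37. With hPRM2 it was at 3.83, 1.05 and 12.4 RPKM, below every empty vector library, and these values stand for about 26.3, 3.44 and 51.8 reads at its longest transcript.

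BLVRB, which reduces flavins and the beta isomer of biliverdin, was at 28.8, 10.04 and 20.3 RPKM in the libraries labelled hPRM1, at 14.8, 0.707 and 4.62 RPKM with the empty vector and at 0, 7.53 and 8.78 RPKM with hPRM2, so that the empty vector overlapped with both other groups. Its coefficient of variation was 108% with the empty vector, against 47.6% for hPRM1 by label. At its longest transcript the BLVRB values stand for about 134, 6.90 and 57.0 reads with the empty vector and 0, 10.9 and 16.1 with hPRM2. BLVRA is the reductase for the alpha isomer. The ratio of BLVRB to BLVRA within a library was 0.0200 to 0.379 with the empty vector, 2.69 to 5.10 in the libraries labelled hPRM1 and 0 to 0.873 with hPRM2, so that in RPKM BLVRB was the higher of the pair in those 3 libraries and in none of the other 6.

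Within the libraries labelled hPRM1 the order by mean RPKM was AHSP, BNIP3L, FBXO7, SELENBP1, BLVRB, UBE2H, CA1, TRIM58, UBE2O and CA2, from 190.5 RPKM ± 49.0 (SD, n = 3) down to 0.939 RPKM ± 0.362 (SD, n = 3). SELENBP1 and CA2 stood clear of their neighbours, while AHSP, BNIP3L and FBXO7 overlapped in their library values, as did each pair of neighbours from BLVRB to UBE2O. With the empty vector the order by mean RPKM was CA2, FBXO7, BNIP3L, UBE2H, SELENBP1, UBE2O, BLVRB and TRIM58, with AHSP and CA1 at 0. There CA2, FBXO7 and BNIP3L each stood clear of the next, whereas UBE2H, SELENBP1 and UBE2O overlapped in a row and BLVRB overlapped with TRIM58. These orders rest on the division by length. By reads estimated at the longest transcript AHSP, at 334, 156 and 327, was below FBXO7, at 7080, 2631 and 3915, in the libraries labelled hPRM1. With the empty vector CA2, at 2249, 2145 and 2488 reads, was below FBXO7, at 3170, 2884 and 6264. CA2 was last of the 10 in the libraries labelled hPRM1 on both scales.

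The 10 genes did not vary together among the 3 libraries labelled hPRM1. Replicate 2 was lowest for AHSP, CA1, BLVRB and FBXO7, replicate 3 was lowest for BNIP3L, CA2, SELENBP1, TRIM58 and UBE2H, and replicate 1 was lowest for UBE2O. CA1 and BLVRB had the widest spread, with coefficients of variation of 47.0% and 47.6%, and AHSP had 25.7%. No single library set the level of the whole group of genes.

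**Figure D2:**
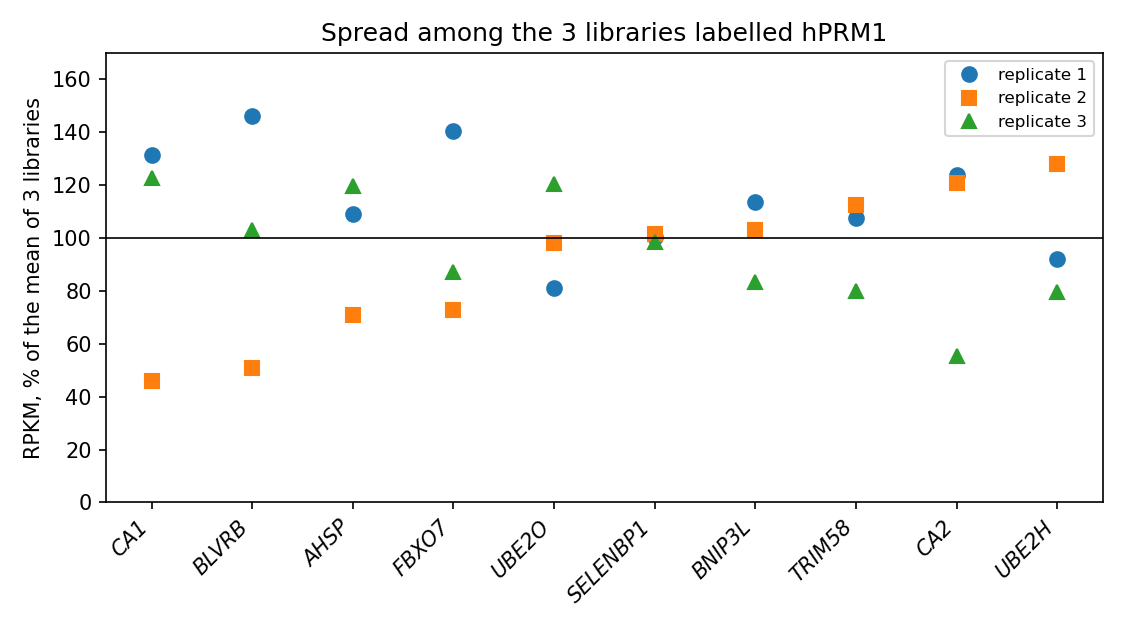
RPKM of each gene in the 3 libraries labelled hPRM1, as a percent of the mean of the 3 (horizontal line at the mean), with a symbol for each replicate. SELENBP1 lies within a coefficient of variation of 1.52%, and replicate 2 is the lowest for CA1, BLVRB, AHSP and FBXO7.

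On the log2(RPKM + 1) scale the difference of the libraries labelled hPRM1 from the empty vector was -6.51 (SE 0.22) for CA2, -1.82 (SE 0.21) for UBE2O and -1.16 (SE 0.27) for UBE2H. It was 2.09 (SE 0.18) for BNIP3L, 2.14 (SE 0.41) for TRIM58, 2.12 (SE 0.26) for SELENBP1, 1.84 (SE 0.82) for BLVRB and 0.94 (SE 0.32) for FBXO7. No fold is given for AHSP and CA1, which were listed at 0 with the empty vector. A gene was called where limma gave an adjusted p of at most 0.05 and a difference of at least 2-fold. By that rule 5 of the 10 were higher (AHSP, CA1, BNIP3L, TRIM58 and SELENBP1), beside 12.9% of the 13588 genes tested, and 3 were lower (CA2, UBE2O and UBE2H), beside 62.5%. All 3 libraries lay above all empty vector libraries for 6 genes, the 5 and FBXO7, beside 14.5%, and below them for 3, beside 66.4%. These counts come from the contrast behind the choice of genes and nothing is read from them. AHSP, CA1 and TRIM58 passed the filter on low values only through the libraries labelled hPRM1. Without any 1 of the libraries labelled hPRM1, AHSP and CA1 no longer passed the filter, and the count of 5 became 3 without replicate 1, 4 without replicate 2 (where FBXO7 was added) and 3 without replicate 3.

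The median difference over all tested genes was -1.72, so most genes had a lower RPKM in the libraries labelled hPRM1. RPKM is relative to the depth of a library, so a lower value is a lower share of the reads and not a measured fall in RNA per cell. The 10 haemoglobin genes summed to 2061750 to 2267020 RPKM in these libraries, and their part in the lower shares was not tested. Differences relative to that median separate the 3 lower genes. CA2 was 4.79 below the median on the log2 scale, at percentile 0.787 of all differences, whereas UBE2O was at -0.10 and UBE2H at 0.55 relative to it, at percentiles 47.6 and 61.9. UBE2O was thus lower by about as much as the middle of all genes, and UBE2H by somewhat less. BNIP3L, TRIM58, SELENBP1 and BLVRB were 3.80, 3.85, 3.84 and 3.56 above the median and FBXO7 was 2.66 above it. After rescaling by the median of ratios the median over all genes was 0.14. CA2 was then at -4.60, while UBE2O at 0.40 and UBE2H at 1.19 changed sign. By the same rule UBE2H was then called higher, having been called lower for the values as deposited. After quantile normalization CA2 was at -4.93, UBE2O at -0.17 and UBE2H at 0.48.

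**Figure D3:**
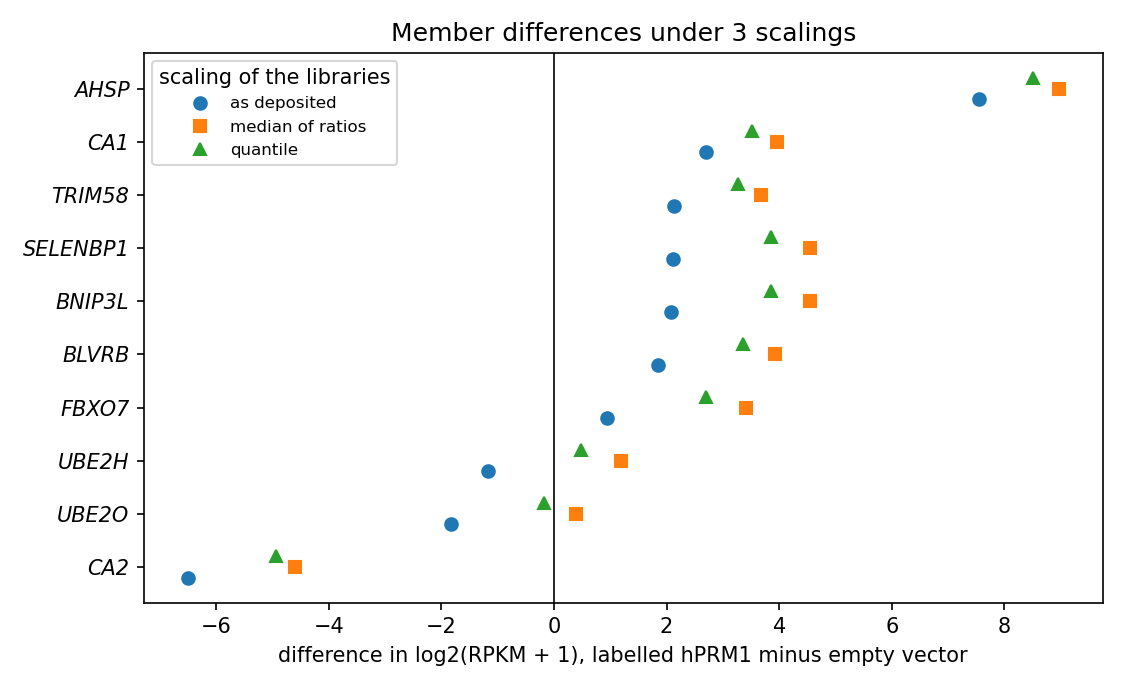
Difference in log2(RPKM + 1) of the libraries labelled hPRM1 from the empty vector for each gene, with the values as deposited (circles), after median-of-ratios rescaling (squares) and after quantile normalization (triangles). CA2 is below 0 under all 3, the 7 genes from AHSP to FBXO7 are above 0 under all 3, UBE2H changes sign under both rescalings and UBE2O under the median of ratios. AHSP and CA1 were listed at 0 with the empty vector, so their positions depend on the added 1.

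The comparison of hPRM2 with the empty vector was not used to choose the genes. Of the 10, 7 could be tested, since AHSP and CA1 were at 0 in all 6 libraries and TRIM58 did not pass the filter on low values. None of the 7 was called by limma in either direction, beside 1.36% of the 13126 genes tested called higher and 1.37% called lower. At an unadjusted p under 0.05 there were 2 of the 7, SELENBP1 and UBE2H, beside 25.5% of all tested genes. The per-gene unequal-variance test on RPKM also called 0 of the 7, beside 0 higher and 9 lower among all tested genes. SELENBP1 was at -2.06 on the log2(RPKM + 1) scale (SE 0.78, 95% interval -3.90 to -0.22, limma adjusted p = 0.164), and its adjusted p ranged from 0.0513 to 0.435 over the alternatives. UBE2H was at -1.35 (SE 0.51, interval -2.55 to -0.14, limma adjusted p = 0.164), with a range of 0.0512 to 0.490, and UBE2O was at -1.09 (SE 0.50, interval -2.27 to 0.10, limma adjusted p = 0.225), with a range of 0.0801 to 0.596. These 3 genes had lower values in all 3 hPRM2 libraries than in any empty vector library, which 29.9% of all tested genes also had, and none of the 7 lay wholly above, beside 6.01% of all tested genes.

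The mean with the empty vector was 3.63 times that with hPRM2 for SELENBP1, 2.66 times for UBE2H and 2.20 times for UBE2O. Over all tested genes the median difference was -0.72, and relative to it SELENBP1 was at -1.34, UBE2H at -0.63 and UBE2O at -0.37. CA2 was at -0.74 (SE 0.61, interval -2.19 to 0.70), which is -0.02 relative to the median, and its limma adjusted p was 0.455. BNIP3L was at 0.12 (SE 0.36, interval -0.74 to 0.97, limma adjusted p = 0.846). For the values as deposited its interval excludes a 2-fold rise as well as a 2-fold fall. Relative to the median BNIP3L was at 0.84, and after median-of-ratios rescaling it was at 0.66, so the exclusion is stated for the deposited scaling only. FBXO7 was at -0.41 (SE 0.43, interval -1.42 to 0.61, limma adjusted p = 0.555). BLVRB was at -0.29 with an interval of -3.07 to 2.50 (SE 1.18, limma adjusted p = 0.890), which spans more than 2-fold in either direction. With 1270000 to 2650000 reads on genes, the hPRM2 libraries were the shallowest of the 9.

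**Figure D4:**
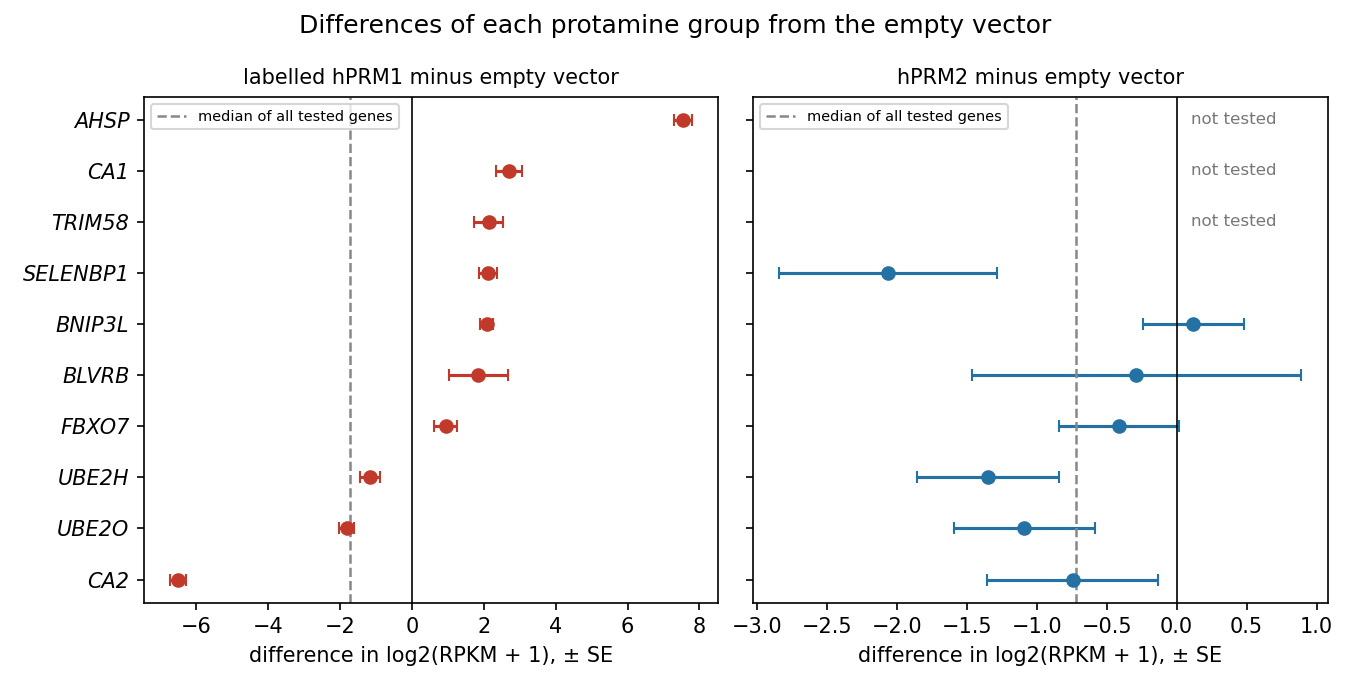
Difference in log2(RPKM + 1) from the empty vector for each gene, as points with bars of 1 SE, for the libraries labelled hPRM1 (left) and hPRM2 (right, on a narrower axis), with a dashed line at the median of all tested genes. In the left panel UBE2O and UBE2H lie near the dashed line at -1.72 and CA2 lies far below it, and in the right panel SELENBP1 at -2.06 is the lowest of the 7 genes tested. AHSP and CA1 were listed at 0 with the empty vector, so their positions depend on the added 1.

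The genes that work with these 10 were taken from lists chosen with the same results known, and both comparisons use the same empty vector libraries. Nothing is read from the counts and medians of these lists in the libraries labelled hPRM1. Several listed genes, low or at 0 with the empty vector, passed the filter on low values only through those libraries. Some of the late erythroid genes called higher are among them. In the hPRM2 comparison the per-gene unequal-variance test on RPKM called 0 genes of these 7 lists, beside 0 higher and 9 lower among all tested genes. Of 32 other late erythroid genes, 29 were tested in the libraries labelled hPRM1, where 17 were called higher, beside 12.9% of all tested genes, and 6 lower, beside 62.5%, with a median difference of 1.21 beside -1.72 for all genes. SLC25A37 (mitoferrin), which carries iron into mitochondria for heme, was at 2663, 2556 and 2039 RPKM there and at 17.3, 13.0 and 25.2 RPKM with the empty vector. GYPC, a glycophorin of the red cell membrane, was at 699, 516 and 478 RPKM against 39.2, 38.3 and 55.0 RPKM, and GMPR, a guanosine monophosphate reductase, had a mean of 99.4 RPKM ± 16.5 (SD, n = 3) against 9.55 RPKM ± 4.73 (SD, n = 3). RNF10 was at 187 RPKM on average against 115 RPKM and was not called. The 6 lower genes included PRDX2, an abundant red cell peroxidase, at a mean of 18.8 RPKM against 114 RPKM, the erythropoietin receptor EPOR at 1.30 RPKM against 3.82 RPKM, and the transferrin receptor TFRC at 2.12 RPKM against 23.6 RPKM. TFRC was chosen after its values were seen.

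With hPRM2, 22 of the 32 late erythroid genes were tested, and 2 were called lower, beside 1.37% of all tested genes, and 0 higher, beside 1.36%. There were 10 at an unadjusted p under 0.05, beside 25.5% of all tested genes, and the median difference was -1.18 beside -0.72 for all genes. GMPR was at 0, 0 and 0.491 RPKM with hPRM2, a difference of -3.08 (SE 0.60, limma adjusted p = 0.0485). It lay below all 3 empty vector libraries at 4.09 to 12.4 RPKM, as 29.9% of all tested genes did. EPOR was listed at 0 in all 3 hPRM2 libraries, where 3 reads would give at most 1.09 RPKM, and at 3.09 to 4.33 RPKM with the empty vector (limma adjusted p = 0.0368). Both calls were fragile: of the 12 alternatives in which each could be tested, GMPR lost its call in 9 and EPOR in 7, with adjusted p from 0.00494 to 0.300 and from 0.00371 to 0.208. Both were lost without hPRM2 replicate 2 and without hPRM2 replicate 3. GMPR and EPOR passed the filter on low values only through the empty vector libraries, where they are high. Nothing further is read from these 2 calls.

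Of 15 other genes of mitophagy and the autophagosome, 14 were tested, and in the libraries labelled hPRM1 1 was called higher (MAP1LC3A), beside 12.9% of all tested genes, and 6 lower, beside 62.5%, with a median of -0.73. GABARAP, an autophagosome protein that BNIP3L binds, was at 206 RPKM ± 32.2 (SD, n = 3) in them and at 200.2 RPKM ± 83.4 (SD, n = 3) with the empty vector. The 2 means are close only for the values as deposited. On the log2(RPKM + 1) scale the GABARAP difference was 0.11, beside a median of -1.72 for all genes. GABARAPL2 was at 68.7 RPKM on average against 168 RPKM and MAP1LC3B at 19.2 RPKM against 54.5 RPKM, and both were called lower. SQSTM1, an adaptor for ubiquitin-tagged cargo, was at 42.3 RPKM against 61.9 RPKM and was not called. With hPRM2 limma called 0 of 14, beside 1.36% of all tested genes called higher and 1.37% called lower. At an unadjusted p under 0.05 there were 0, beside 25.5% of all tested genes.

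Of 30 ubiquitin genes and conjugating enzymes, 29 were tested, and in the libraries labelled hPRM1 24 were called lower, beside 62.5% of all tested genes, and 2 higher (UBE2B and UBE2L6), beside 12.9%, with a median of -2.07 beside -1.72 for all genes. UBB, a polyubiquitin gene, was at 2611, 2601 and 3532 RPKM against 4159, 3864 and 4486 RPKM with the empty vector and was not called. RPS27A, which encodes ubiquitin fused to a ribosomal protein, was at 485 RPKM ± 48.1 (SD, n = 3) against 8417 RPKM ± 262 (SD, n = 3). UBE2C, the conjugating enzyme of the anaphase-promoting complex and a gene of dividing cells, was at 3.09, 4.31 and 3.39 RPKM against 929, 996 and 1217 RPKM.

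With hPRM2, 9 of the 29 tested were at an unadjusted p under 0.05, beside 25.5% of all tested genes. UBE2C was at 292, 206 and 417 RPKM with hPRM2, a difference of -1.83 (SE 0.33, limma adjusted p = 0.0413). It was the 1 gene of the 29 called, beside 1.36% of all tested genes called higher and 1.37% called lower. Its call was lost in 9 of 16 alternatives, where the adjusted p ranged from 0.00715 to 0.270, among them the fits without any 1 of the empty vector replicates and those without hPRM2 replicate 2 or 3. Its values in all 3 hPRM2 libraries were below every empty vector library, which 29.9% of all tested genes also had.

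Of 11 genes of the CTLH ligase, which UBE2H serves, 6 were called lower, beside 62.5% of all tested genes, and 0 higher, beside 12.9%, by limma in the libraries labelled hPRM1, with 8 at an unadjusted p under 0.05, beside 80.7% of all tested genes, and a median of -1.16. YPEL5 was at 4.86 RPKM on average against 20.5 RPKM and WDR26 at 4.94 RPKM against 21.1 RPKM, while MAEA at 8.81 RPKM against 12.5 RPKM and GID8 at 16.2 RPKM against 32.8 RPKM were not called. Of the 4 partners of FBXO7, the 3 SCF subunits CUL1, SKP1 and RBX1 were called lower, beside the same 62.5%, RBX1 at 8.13, 6.001 and 10.4 RPKM against 261, 219 and 321 RPKM, whereas PSMF1, which FBXO7 binds, was at 60.7 RPKM ± 9.43 (SD, n = 3) against 49.3 RPKM ± 8.43 (SD, n = 3) and was not called. With hPRM2 limma called 0 of the 11 and 0 of the 4, with 2 and 0 at an unadjusted p under 0.05. Of all tested genes 1.36% were called higher with hPRM2, 1.37% were called lower and 25.5% had such a p.

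Of 13 other carbonic anhydrases 5 were tested in the libraries labelled hPRM1, where 2 were called higher, beside 12.9% of all tested genes, and 2 lower, beside 62.5%. CA4, a membrane-bound form, was at 11.2, 20.3 and 19.5 RPKM there and listed at 0 in the other 6 libraries, and CA5B, a mitochondrial form, was at 7.16, 8.83 and 14.9 RPKM against 1.65, 0.568 and 2.98 RPKM. CA8 and CA12 were called lower as CA2 was, CA8 at 0, 0 and 0.364 RPKM against 9.65, 9.82 and 9.44 RPKM. CA8 with hPRM2 was at 0.261, 0 and 2.15 RPKM. There limma called 0 of the 4 tested, beside 1.36% of all tested genes called higher and 1.37% called lower. CA8 was the 1 gene at an unadjusted p under 0.05, beside 25.5% of all tested genes. CA11 spread from 6.95 to 541 RPKM over the 9 libraries without a call.

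Of 5 genes of heme degradation and export 4 were tested, and the 3 genes HMOX2, BLVRA and FLVCR1 were called lower in the libraries labelled hPRM1, beside 62.5% of all tested genes. HMOX2, the constitutive heme oxygenase, was at 19.3 RPKM ± 4.88 (SD, n = 3) against 50.7 RPKM ± 4.18 (SD, n = 3), and the heme exporter FLVCR1 was at 0.466 RPKM against 6.89 RPKM. HMOX1, the inducible oxygenase, was at 2.17, 7.54 and 3.29 RPKM against 2.41, 0.595 and 3.19 RPKM and was not called. With hPRM2 limma called 0 of the 3 tested, beside 1.36% of all tested genes called higher and 1.37% called lower. At an unadjusted p under 0.05 there was 1, beside 25.5% of all tested genes.

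**Figure D5:**
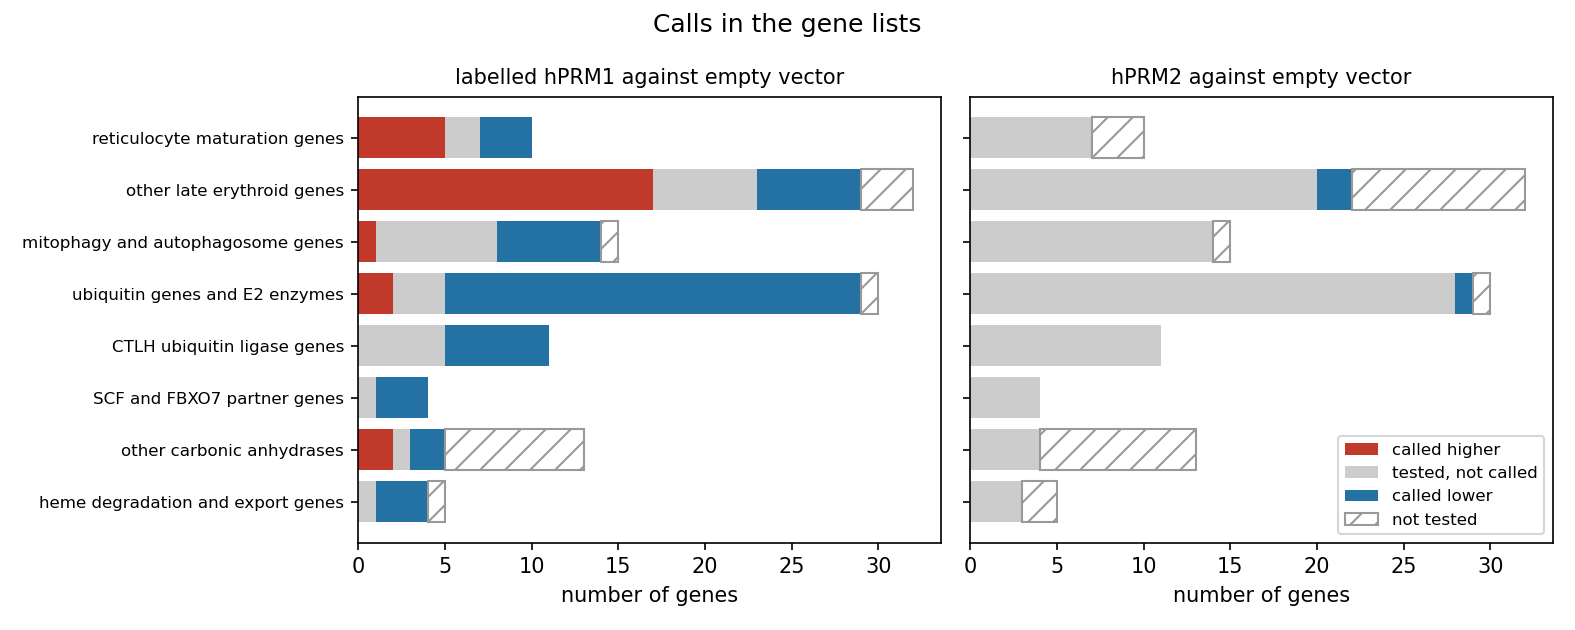
Number of genes in each list called higher, tested and not called, called lower, and not tested, for the libraries labelled hPRM1 (left) and hPRM2 (right) against the empty vector. In the left panel 17 of 32 late erythroid genes are called higher while 24 of 30 ubiquitin genes and conjugating enzymes are called lower, and in the right panel 3 calls remain, GMPR, EPOR and UBE2C, all lower.

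The genes with the pattern most like AHSP over the 9 libraries, by the root mean square difference in log2(RPKM + 1), were CXCR2 and SLC15A3, both at 0.207, VNN2 at 0.216, CD52 at 0.218 and FPR1 at 0.223. CXCR2 is also 1 of the 10 neutrophil and monocyte markers above. For UBE2H the nearest were RNF216 at 0.276, UBE2Z at 0.285, ZFP91 at 0.323, NUP50 at 0.376 and RYBP at 0.390. UBE2Z is a conjugating enzyme of the ubiquitin list.

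AHSP and the other genes with higher levels in the libraries labelled hPRM1 were high in the same libraries as marker genes of other blood cells. That is the contrast behind the choice of genes, and whether they vary together among those libraries was not tested. Of the marker with the highest mean RPKM over all 9 libraries in each list, HBA2 was at 1146420 to 1295700 RPKM in the libraries labelled hPRM1, TYROBP of myeloid cells at 1913 to 2421 RPKM, CCL5 of lymphocytes at 220 to 279 RPKM and PF4 of platelets at 291 to 460 RPKM, while NEFM of HEK293T was at 0 in all 3 and at 51.9 to 108 RPKM with the empty vector. The part of these markers in the values of the 10 genes was not tested. With hPRM2 NEFM was at 27.0 to 58.4 RPKM and all 8 HEK293T markers were above 0 in at least 1 library, while TYROBP and PF4 were at 0. CCL5 was the exception, at 149, 594 and 452 RPKM with hPRM2 against 32.4, 51.7 and 41.4 RPKM with the empty vector (limma adjusted p = 0.0424), a call lost in 10 of 16 alternatives, where the adjusted p ranged from 0.00355 to 0.354. The call on CCL5 was lost without any 1 of the empty vector libraries and without hPRM2 replicate 2 or 3.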

How the data were processed

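By the labels, total RNA of sorted HEK293T cells was made into 3′ mRNA libraries, and the reads were processed by the authors with FastQC, cutadapt, STAR and Salmon against hg38; versions and gene annotation are not given in the sources used here. The deposited table holds RPKM values, which the authors obtained by dividing each gene's reads by the library's total reads, scaled per unit of depth, and by the gene length after removing mitochondrial genes. Fits (3 libraries against 3) were made with limma 3.58.1 in R 4.3.3 (trended and robust eBayes) on log2(RPKM + 1), for genes at 1 RPKM or more in at least 3 of 6 libraries, with Benjamini-Hochberg adjustment over all genes tested. A gene was called at an adjusted p of at most 0.05 and a difference of at least 2-fold, and adjusted p-values are limma's unless another test is named. A fold change on this scale understates the change of low genes. Whole reads are not in the table; depth was estimated from genes with 1 transcript of 600 to 20000 bases in GENCODE 29, with 250 bases subtracted from the length, and reads per gene are estimates at the longest transcript. Limits for a value of 0 use 3 reads and cover counting error only. Symbols were matched to 98.6% of gene IDs.

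The members and gene lists were chosen with earlier results of these data known. Beside the members, the named genes are the 4 of each list with the highest mean RPKM, any gene called with hPRM2, the highest gene of each marker list and the 5 genes nearest to AHSP and to UBE2H by pattern, leaving out HLA, immunoglobulin, T cell receptor and sex-chromosome marker genes. A few genes that this rule or the marker lists would name are not reported here. The settings varied were the pseudocount (0.1 and 5), the filter (none, or 10 RPKM in its place), median-of-ratios and quantile scaling, 1 fit of all 9 libraries, the replicate number as a block, leaving out each library, no fold threshold and a per-gene unequal-variance test on RPKM, since the methods name a per-gene test without giving its variance model. The fit was tested on simulated data in which a small part of the genes was changed, equally in both directions. That simulation does not cover a comparison in which most genes are called, such as that of the libraries labelled hPRM1. Promoter windows are RefSeq's (GRCh38.p14). Files were handled with Python 3.11.15, pandas 2.3.3 and numpy 2.4.6.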

Additional observations from a re-analysis of the deposited data

How the results depend on the processing

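In the comparison of hPRM2 with the empty vector, 6 to 8 of the 10 genes could be tested, depending on the setting. AHSP and CA1 could be tested in none of the 17 settings run and TRIM58 in 1. Of the genes tested, 0 were called under any setting, and 6 single values of the members changed sign. BLVRB was at 0.20 after median-of-ratios rescaling, 0.72 after quantile normalization, 0.50 without empty vector replicate 1 and 0.78 without hPRM2 replicate 1, FBXO7 was at 0.14 after median-of-ratios rescaling, and BNIP3L was at -0.034 without hPRM2 replicate 3. With 1 library left out in turn, BNIP3L ranged from -0.034 to 0.29 and BLVRB from -1.11 to 0.78. In the libraries labelled hPRM1, 3 member values changed sign, UBE2O to 0.40 and UBE2H to 1.19 after median-of-ratios rescaling and UBE2H to 0.48 after quantile normalization. These rescalings move the median of all genes from -1.72 to 0.14 and -0.30. The call on UBE2H went from lower to higher under median-of-ratios rescaling. Members called higher numbered 8 after median-of-ratios rescaling and 3 with a minimum of 10 RPKM or the per-gene test, against 5, and 3 to 6 with 1 library left out, while members called lower numbered 1 after either rescaling, against 3, and 2 to 3 with 1 library left out.

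Of all genes, 1750 were called higher in the libraries labelled hPRM1, and this became 1152 with a pseudocount of 5, 867 with a minimum of 10 RPKM, 4434 after median-of-ratios rescaling, 3475 after quantile normalization, 791 in the per-gene test and 664 to 1816 with 1 library left out (734, 664 and 696 without hPRM1 replicates 1, 2 and 3). The 8491 called lower became 4970 with a minimum of 10 RPKM, 3412 and 4388 after the rescalings, 3723 in the per-gene test and 5606 to 8478 with 1 library left out. With hPRM2 the 179 genes called higher became 72 with no filter, 342 after quantile normalization, 507 in the fit of all 9 libraries and 0 in the per-gene test, and the 180 called lower became 101 with a pseudocount of 5, 17 with no filter, 44 with a minimum of 10 RPKM, 58 and 70 after the rescalings, 1618 in the fit of all 9 libraries and 9 in the per-gene test. Leaving out 1 library gave 5 to 680 higher and 0 to 1577 lower, with 680 and 1577 without hPRM2 replicate 1. The cause was not tested. At an unadjusted p under 0.05, limma had 3351 genes with hPRM2.

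Same-numbered libraries did not deviate together, with correlations of -0.011, 0.042 and -0.028 between the empty vector and the libraries labelled hPRM1. Between the empty vector and hPRM2 they were -0.018, 0.093 and -0.081, and libraries of different numbers there reached -0.119 and 0.115. Whether same-numbered libraries were prepared together is not stated in the sources used here. With the replicate block 49 genes were called higher and 8 lower with hPRM2, and 1783 higher and 8551 lower in the libraries labelled hPRM1, with 6 members higher and 3 lower. The hPRM2 libraries, at 1270000 to 2650000 reads on genes, limit what can be seen for AHSP, CA1, TRIM58, SELENBP1 and BLVRB.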
